A study of Homo sapiens with 9 samples.

Results

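The genes described here are 43 named human genes of the interferon response and of viral RNA sensing, taken by symbol from the 60829 rows of the deposited expression table. Of these, 42 were found under their own symbol. RIGI, which the table lists under its older name DDX58, was found by its Ensembl ID. A filter on low counts kept 41 of the 43 for testing, out of 27777 rows kept in all, and RSAD2 and IFI44L did not pass it.

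H1, an established human embryonic stem cell line, was the source of all RNA, which was sequenced as total RNA with ribosomal RNA removed. The knockout clone (chrX-KO_H1, genotype knock out, 5 libraries) carries a knockout on chromosome X of what the labels name HERVHlin, HERVH being a family of endogenous retroviruses transcribed in human pluripotent cells. The control clone (chrX-ctrl_H1, genotype WT, 4 libraries) is of the same line. Each group is 1 clone, and its libraries are successive passages, called technical replicates in the design text and biological ones in the sample titles. No treatment with interferon or virus is named for either group. The growth label names mTESR medium on vitronectin, whereas a treatment label, shared by both groups, calls the cells differentiated. Every p-value thus rests on passage-to-passage spread within a single clone per group, and clone and genotype cannot be told apart.

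The libraries held 19838682 to 31192630 reads, of which protein-coding genes took 26.3% to 50.8%. Values are normalized counts, which are reads divided by the authors' size factor of each library. Of 3 rows that the authors' table marks as the knocked-out feature, 2 were called lower in the knockout clone. The row gene.human_00015544 had 25.9 to 73.0 normalized counts in knockout libraries and 1316 to 3935 in control libraries. Pluripotency genes were abundant in every library, with summed levels of 10 markers of 26755 to 41360 normalized counts in knockout libraries and 31935 to 73006 in control libraries. Fibroblast markers summed to 2990 to 4677 in knockout and 3406 to 6034 in control libraries, most of it THY1. COL1A1 averaged 417 in knockout and 716 in control libraries, and COL1A2 averaged 634 and 643. PDGFRB, FBN1 and DCN were lower, and COL3A1 and LUM were near 0. Leukocyte markers, whose cells respond strongly to interferon, summed to 20.2 to 38.3 in knockout and 31.6 to 66.9 in control libraries, and FCGR3A was at 0 in every knockout library.

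Cells detect viral RNA with helicases of the RIG-I family in the cytoplasm and with TLR3 in endosomes. The signal passes through adaptors such as MAVS to the factors IRF3 and IRF7, which switch on interferon genes. Secreted interferon acts through its receptors to assemble a complex that holds STAT2 and IRF9, which binds the interferon-stimulated response element of many target genes. Human pluripotent stem cells are known for a weak response to interferon and for a constant level of some antiviral genes, the IFITM genes among them.

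Promoter sequences of 4 genes are given because these genes show how the levels described below differ between members: IFIT1 and ISG15 varied widely between passages, BST2 had the smallest unadjusted p between the clones, and STAT2 had the narrowest range of the 41 tested members within the knockout clone. Each line holds the 250 bases before the RefSeq gene start (build GRCh38.p14), read in the direction of the gene. Capitals mark matches to GAAANNGAAA, a spaced pair of GAAA as in the interferon-stimulated response element, or to TTTCNNTTTC, which is the same motif on the other strand. Matches that overlap are run together.
IFIT1 (chr10:89392373-89392622, plus strand): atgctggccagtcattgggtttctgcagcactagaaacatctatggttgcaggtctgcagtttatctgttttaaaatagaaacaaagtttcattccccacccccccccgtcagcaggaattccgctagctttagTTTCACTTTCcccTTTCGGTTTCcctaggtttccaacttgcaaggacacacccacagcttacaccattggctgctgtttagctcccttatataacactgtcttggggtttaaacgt
ISG15 (chr1:1013247-1013496, plus strand): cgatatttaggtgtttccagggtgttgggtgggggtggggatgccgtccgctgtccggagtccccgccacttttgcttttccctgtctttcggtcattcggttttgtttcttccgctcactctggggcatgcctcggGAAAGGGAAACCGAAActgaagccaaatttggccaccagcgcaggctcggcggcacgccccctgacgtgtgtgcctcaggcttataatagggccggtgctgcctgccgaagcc
BST2 (chr19:17405631-17405880, minus strand): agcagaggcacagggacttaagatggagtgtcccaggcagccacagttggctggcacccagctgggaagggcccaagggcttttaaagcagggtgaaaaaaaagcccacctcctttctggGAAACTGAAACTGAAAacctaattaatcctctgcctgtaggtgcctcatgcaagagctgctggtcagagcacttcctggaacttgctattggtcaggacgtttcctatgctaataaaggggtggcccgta
STAT2 (chr12:56360108-56360357, minus strand): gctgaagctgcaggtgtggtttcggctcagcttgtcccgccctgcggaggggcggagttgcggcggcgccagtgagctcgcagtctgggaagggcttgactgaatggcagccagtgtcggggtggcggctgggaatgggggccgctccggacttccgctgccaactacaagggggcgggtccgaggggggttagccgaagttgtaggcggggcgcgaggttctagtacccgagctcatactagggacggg
The window of IFIT1 held 2 matches, starting 116 and 103 bases before the gene start. In ISG15 the 2 matches started 113 and 107 bases before it, and in BST2 130 and 124 bases before it, and in both genes they share a GAAA. The STAT2 window held none. Over windows from 250 bases before to 50 after the start, 24 of 34 members with a window held the motif on either strand (70.6%), against 1195 of 27305 genes in the table (4.38%). A match describes the letters of the window and not the binding of a factor.

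No member was called between the clones. The limma test at an adjusted p under 0.05 called 150 of all 27777 rows (0.54%) and 0 of the 41 tested members, and edgeR, DESeq2 and the replicate-blocked fit also called 0. Of the 43 members, 0 had an adjusted p under 0.05 in the authors' deposited table, the smallest being 0.23. At an unadjusted p under 0.05, limma listed 2 members, BST2 and IRF7, both higher in knockout libraries (8.63% of all rows pass in either direction). The edgeR test listed 3, all higher (7.9% of all rows), and DESeq2 listed 4, all higher (10.2%). The blocked fit listed 7 as higher and 1 as lower (11.2% of all rows in either direction). No member had libraries of the clones that did not overlap (3.95% of all rows). The log2 fold changes of the members, knockout over control on the log2(value + 1) scale, were positive for 17 and negative for 24, and ran from -0.70 for OASL to 0.88 for BST2. Their median was -0.09, beside 0.01 for all tested rows and -0.10 for the 13482 protein-coding rows averaging 20 normalized counts or more. That median was 0.12 with DESeq2, 0.17 with edgeR and 0.17 with the replicate block, so the list as a whole had no stable direction.

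**Figure D1:**
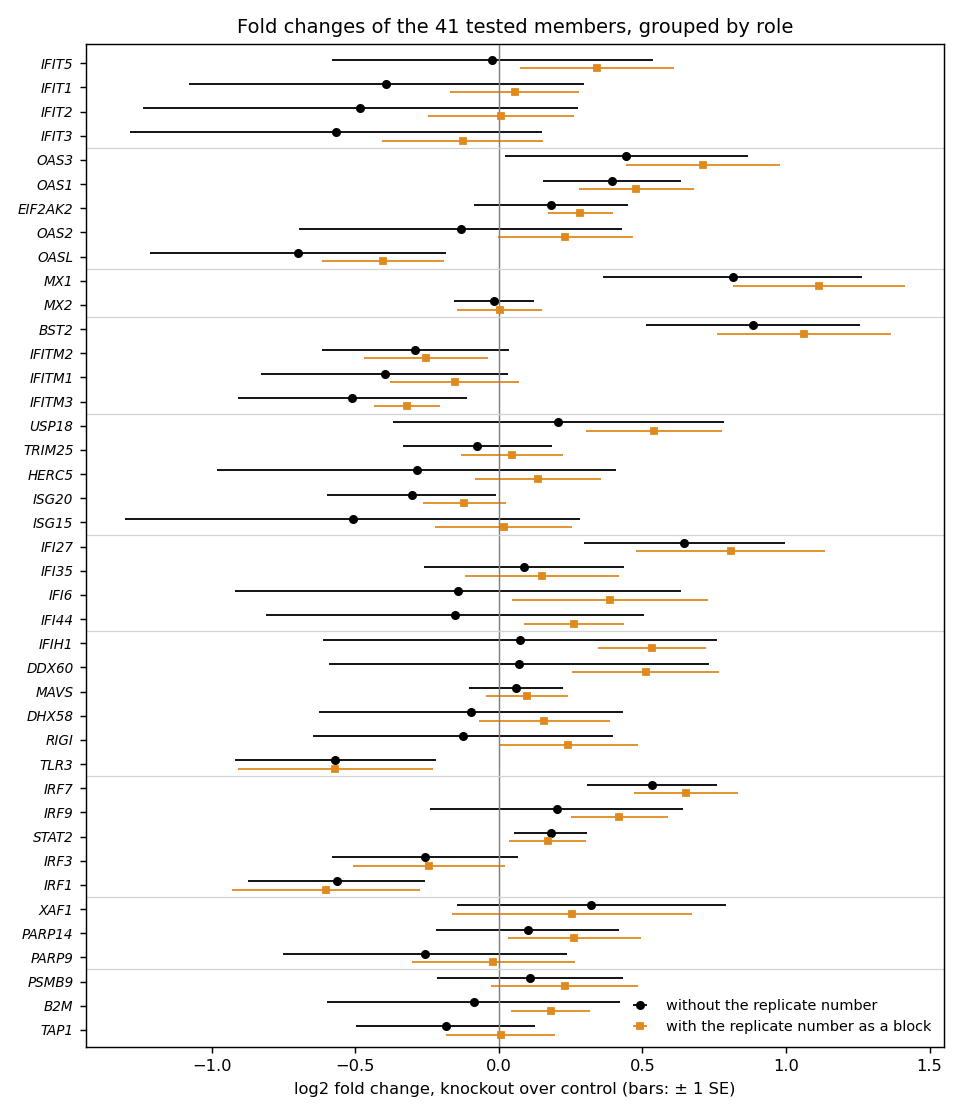
Log2 fold change of each tested member, knockout over control, on the log2(value + 1) scale (x axis; bars are 1 SE), with the members grouped by role down the page, black points for limma with the group alone and orange squares for limma with the replicate number as a block. The black points run from -0.70 for OASL to 0.88 for BST2, and none of either kind passed an adjusted p of 0.05.

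BST2, IRF7, MX1 and IFI27, which were among the members with the smallest unadjusted p, had their higher values in some passages of the knockout clone. BST2, which encodes tetherin, a membrane protein that holds budding virions at the cell surface, had 769, 1099, 713, 345 and 365 normalized counts in knockout 1 to 5, against 525, 269, 281 and 275 in control 1 to 4. The 3 highest libraries are all of the knockout clone, but knockout 4 and 5 lie below control 1, which stands apart from the other control libraries. BST2 averaged 658 ± 314 in the knockout clone (SD, n = 5) and 337 ± 125 in the control clone (SD, n = 4), with a log2 fold change of 0.88 (SE 0.37, limma adjusted p = 0.54) and an unadjusted p of 0.039. IRF7, the factor that amplifies interferon production, had 153, 159, 218, 112 and 103 normalized counts in knockout 1 to 5, against 103, 107, 98.5 and 88.5 in control 1 to 4. Knockout 1 to 4 exceeded every control library, while knockout 5 lay between control 1 and control 2. The log2 fold change of IRF7 stood at 0.53 (SE 0.23, limma adjusted p = 0.55), with an unadjusted p of 0.040. MX1, a dynamin-like GTPase that blocks influenza virus and other viruses, had 720.4, 490.4, 871, 228 and 181 normalized counts in knockout 1 to 5, against 264, 279.7, 219.7 and 195 in control 1 to 4. Here knockout 1 to 3 were above all controls, knockout 4 was among them and knockout 5 was below them all. MX1 averaged 498 ± 301 in the knockout clone (SD, n = 5) and 239 ± 39.0 in the control clone (SD, n = 4), with a log2 fold change of 0.81 (SE 0.45, limma adjusted p = 0.68). IFI27, a small membrane protein induced by interferon, had 59.4, 48.5, 93.2, 28.4 and 29.5 normalized counts in knockout 1 to 5, against 31.9, 32.6, 26.4 and 28.0 in control 1 to 4. Its levels in knockout 4 and 5 lay within the control range, with a log2 fold change of 0.65 (SE 0.35, limma adjusted p = 0.67).

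IRF1 and TLR3 had the higher means in control libraries, without passing the test. IRF1, a factor induced by interferon gamma and by double-stranded RNA, had 218, 117, 80.3, 68.0 and 124 normalized counts in knockout 1 to 5, against 155, 172, 149 and 189.7 in control 1 to 4. Knockout 2 to 5 lie below every control library and knockout 1 lies above them all, giving a log2 fold change of -0.56 (SE 0.31, limma adjusted p = 0.68). In the annotation, 22% of its exon length overlaps C5orf56 on the opposite strand. TLR3, the endosomal sensor of double-stranded RNA, had few reads, with 11.5, 12.4, 16.3, 13.5 and 13.3 normalized counts in knockout 1 to 5, against 11.7, 26.4, 32.8 and 16.3 in control 1 to 4. Control 2 and 3 were higher than every knockout library and control 1 was as low as they were, and the log2 fold change was estimated at -0.57 (SE 0.35, limma adjusted p = 0.72).

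Among the cytoplasmic RNA sensors, levels varied far more between passages than between clones. RIGI, the RNA helicase RIG-I that recognises short viral RNA, had 1229, 876, 869.8, 285 and 200.5 normalized counts in knockout 1 to 5, against 778, 713, 558 and 439.9 in control 1 to 4. Every control library lay above knockout 4 and 5 and below knockout 1 to 3, and the log2 fold change was estimated at -0.12 (SE 0.52, limma adjusted p = 0.95). IFIH1, the sensor of long double-stranded RNA, had 1256, 1011, 857, 234 and 144 normalized counts in knockout 1 to 5, against 981, 524, 488 and 232 in control 1 to 4. The same passages were low, and knockout 4 and control 4 lay at about the same level. For IFIH1 the log2 fold change was estimated at 0.07 (SE 0.69, limma adjusted p = 0.98). With the replicate number as a block, which leaves out the low knockout 5, it was 0.53 (SE 0.19, limma adjusted p = 0.40). DHX58, a relative that tunes both sensors, ranged from 75.5 to 398 normalized counts in knockout and from 108 to 290 in control libraries. DDX60, a helicase linked to RIG-I signalling, ranged from 101 to 823 in knockout and from 174 to 771 in control libraries. MAVS, the mitochondrial adaptor downstream of both sensors, held a narrow range, with 136, 142, 148, 123 and 119 normalized counts in knockout 1 to 5, against 112, 132, 162 and 111 in control 1 to 4. Between the clones MAVS differed by 0.06 (SE 0.16, limma adjusted p = 0.92) on the log2 scale.

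The transcription factors of the pathway varied to unlike degrees, and some of them not alike in both clones. STAT2, the transactivating part of the interferon-induced complex, had 269, 259, 254, 248 and 267 normalized counts in knockout 1 to 5, against 223, 197, 263 and 237 in control 1 to 4. The knockout libraries spanned a 1.08-fold range and the control libraries a 1.33-fold range, and the log2 fold change was estimated at 0.18 (SE 0.13, limma adjusted p = 0.76). IRF3, the constitutive factor activated by MAVS and TLR3 signalling, had 602, 626, 781, 559 and 608 normalized counts in knockout 1 to 5, against 388, 1114, 1265 and 592 in control 1 to 4. Its knockout libraries lay close together, whereas 2 control libraries lay above and 1 below all of them, with a log2 fold change of -0.26 (SE 0.32, limma adjusted p = 0.84), and 19.3% of its exon length overlaps BCL2L12 on the opposite strand. IRF9, the DNA-binding subunit of the complex with STAT2, ranged from 157 to 646 in knockout and from 165 to 390 in control libraries. This value is uncertain, since 48.4% of its exon length is shared with AL136295.5 on the same strand.

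The IFIT genes, a cluster on chromosome 10 (positions 89283694 to 89421001, GRCh38, GENCODE 29) whose proteins bind foreign RNA and block its translation, varied widely between passages of the knockout clone. IFIT1 had 4145, 3556, 2849, 645 and 484 normalized counts in knockout 1 to 5, against 3276, 2741, 2345 and 1106 in control 1 to 4. Knockout 4 and 5 and control 4 were the low libraries in their clones, and the other libraries of both clones overlapped. IFIT1 averaged 2336 ± 1682 in the knockout clone (SD, n = 5) and 2367 ± 923 in the control clone (SD, n = 4), with a log2 fold change of -0.39 (SE 0.69, limma adjusted p = 0.89). The highest knockout library exceeded the lowest by 8.54-fold for IFIT1, 10.6-fold for IFIT2, 8.69-fold for IFIT3 and 6.76-fold for IFIT5 (on the value + 1 scale, as are all such ranges here). In control libraries the ranges of these 4 genes were 2.96-fold, 3.05-fold, 2.76-fold and 1.84-fold.

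**Figure D2:**
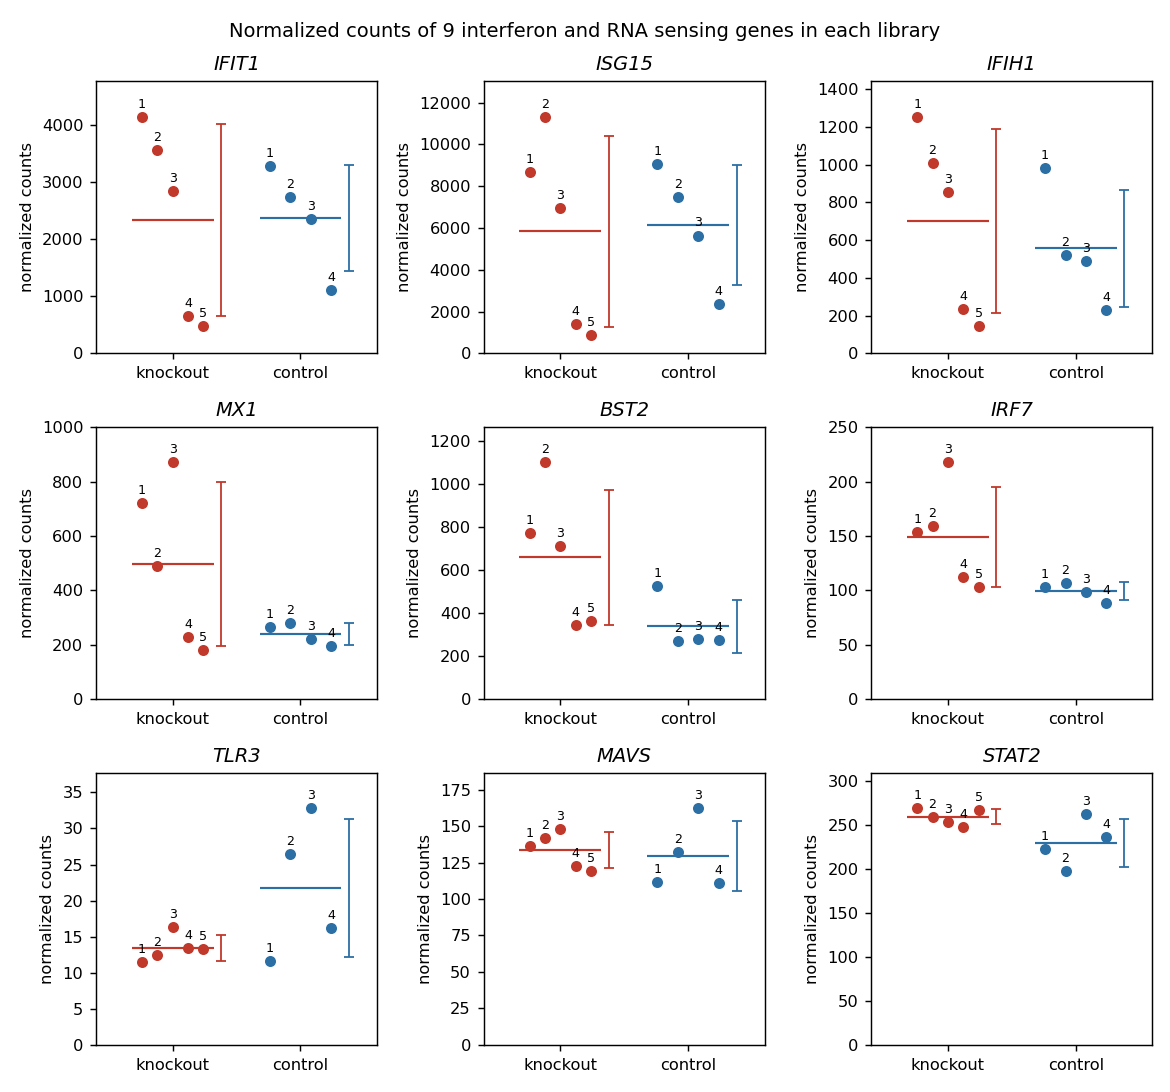
Normalized counts (y axis, starting at 0) of 9 members in each knockout library (red, left) and control library (blue, right), numbered by replicate, with the mean as a line and the SD as a bar. Knockout 4 and 5 and control 4 are the lowest of their clones for IFIT1, ISG15 and IFIH1, while MAVS and STAT2 stay within narrow ranges and TLR3 has few counts in all libraries.

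The enzymes that act on double-stranded RNA differed among themselves. OAS1, which makes the oligoadenylate messenger that activates RNase L, had 274, 186, 187, 191 and 154 normalized counts in knockout 1 to 5, against 173, 182, 93.0 and 163 in control 1 to 4. Knockout 5 was the lowest knockout library for OAS1 but knockout 4 was the second highest, with a log2 fold change of 0.39 (SE 0.24, limma adjusted p = 0.71). OAS2, OAS3 and OASL, its relatives, were each lowest in knockout 4 and 5 and in control 4, with knockout ranges of 58.2 to 381, 34.6 to 130 and 32.4 to 159 normalized counts, against control ranges of 112 to 257, 42.5 to 66.9 and 64.1 to 176. EIF2AK2, the kinase PKR that stops translation on binding double-stranded RNA, had 762, 749, 1269, 566 and 561 normalized counts in knockout 1 to 5, against 635, 682, 903 and 475 in control 1 to 4. Knockout 3 stood apart at the top of its clone, and control 3 was the highest of the controls. EIF2AK2 averaged 781 ± 289 in the knockout clone (SD, n = 5) and 674 ± 177 in the control clone (SD, n = 4), with a log2 fold change of 0.18 (SE 0.27, limma adjusted p = 0.87).

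MX2, the neighbour of MX1 on chromosome 21 and a restriction factor of HIV, was among the steadiest members. It ranged from 128 to 167 normalized counts in knockout and from 135 to 155 in control libraries, with a log2 fold change of -0.02 (SE 0.14, limma adjusted p = 0.98). RSAD2, which encodes viperin, an antiviral enzyme, was barely detected, with 2.25 to 11.5 normalized counts in knockout and 3.11 to 8.13 in control libraries. It did not pass the filter of the limma test.

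ISG15 was the member with the highest level per exon length, at 6211 normalized counts per kb in the knockout clone and 6525 in the control clone. Its product is a ubiquitin-like protein that is attached to newly made proteins. ISG15 had 8666, 11330, 6935, 1396 and 895 normalized counts in knockout 1 to 5, against 9062, 7489, 5637 and 2371 in control 1 to 4. The highest knockout library exceeded the lowest by 12.6-fold and the highest control library the lowest by 3.82-fold, the widest knockout range of the 41 members tested. ISG15 averaged 5844 ± 4570 in the knockout clone (SD, n = 5) and 6140 ± 2876 in the control clone (SD, n = 4), with a log2 fold change of -0.51 (SE 0.79, limma adjusted p = 0.87). HERC5, the ligase that attaches ISG15, followed it with 664 to 5641 normalized counts in knockout and 1259 to 4500 in control libraries. USP18, the protease that removes ISG15 and dampens receptor signalling, ranged from 44.2 to 268 in knockout and from 54.2 to 131 in control libraries. TRIM25, the ubiquitin ligase that activates RIG-I, had 366, 276, 458, 201 and 204 normalized counts in knockout 1 to 5, against 288, 267, 376 and 283 in control 1 to 4. Knockout 4 and 5 were the lowest of all 9 libraries for TRIM25, and control 4 lay between control 1 and control 2, with a log2 fold change of -0.07 (SE 0.26, limma adjusted p = 0.94). ISG20, an exonuclease that degrades viral RNA, ranged from 120 to 252 in knockout and from 152 to 314 in control libraries.

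The IFITM genes, whose products stop viruses from fusing with endosomal membranes, were abundant in every library. IFITM3 had 6829, 6642, 8461, 3275 and 3086 normalized counts in knockout 1 to 5, against 9448, 8524, 10195 and 3729 in control 1 to 4. All 3 low libraries were again knockout 4, knockout 5 and control 4. IFITM3 averaged 5659 ± 2371 in the knockout clone (SD, n = 5) and 7974 ± 2911 in the control clone (SD, n = 4), with a log2 fold change of -0.51 (SE 0.40, limma adjusted p = 0.78). IFITM1 ranged from 2135 to 7846 in knockout and from 3541 to 9827 in control libraries, and IFITM2 from 1012 to 1828 in knockout and from 928 to 2941 in control libraries. IFITM1 and IFITM2 share 351 bases of exon on the same strand, 32.5% of the exon length of IFITM1, and the IFITM genes are close copies of each other, so the split of reads between them is uncertain. Per kb, IFITM3 had 4198 normalized counts in the knockout clone and 5915 in the control clone, and IFITM1 had 4318 in the knockout clone and 5602 in the control clone. The lowest levels per kb of the 43 genes were those of TLR3 (1.99 in knockout, 3.24 in control), RSAD2 (1.13 in knockout, 1.03 in control) and IFI44L (0.71 in knockout, 0.52 in control).

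IFI6, a mitochondrial and endoplasmic reticulum protein that protects cells from flaviviruses, had 2258, 1549, 2129, 292 and 194 normalized counts in knockout 1 to 5, against 1051, 1529, 974 and 477 in control 1 to 4. Every control library exceeded knockout 4 and 5, giving a range of 11.6-fold among knockout and 3.20-fold among control libraries, and the log2 fold change was estimated at -0.14 (SE 0.78, limma adjusted p = 0.96). IFI44 ranged from 116 to 1073 in knockout and from 227 to 733 in control libraries, and IFI35 from 16.4 to 46.6 in knockout and from 19.9 to 42.5 in control libraries. IFI44L, the neighbour of IFI44 on chromosome 1, was barely detected, with 4.51 to 10.5 normalized counts in knockout and 1.82 to 9.56 in control libraries. It was highest in knockout 4 and 5 among the knockout libraries, at levels where a few reads set the order.

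PARP14, an ADP-ribosyltransferase that acts with PARP9 in the response to interferon, had 445, 307, 338, 149 and 164 normalized counts in knockout 1 to 5, against 245, 264, 249 and 205 in control 1 to 4. Its control libraries lay close together, knockout 4 and 5 were below all of them and knockout 1 to 3 above, with a log2 fold change of 0.10 (SE 0.32, limma adjusted p = 0.93). PARP9 ranged from 24.7 to 119 in knockout and from 49.7 to 92.4 in control libraries. XAF1, a proapoptotic interferon-induced gene, differed from these, with 134, 35.0, 75.7, 206 and 117 normalized counts in knockout 1 to 5, against 63.8, 88.6, 54.7 and 117 in control 1 to 4. It was highest in knockout 4 and in control 4 of their clones, but 38.3% of its exon length overlaps PRAL on the opposite strand.

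B2M, the light chain of class I antigen-presenting molecules, had 4490, 4102, 3322, 1172 and 1146 normalized counts in knockout 1 to 5, against 4221, 3109, 2545 and 1302 in control 1 to 4. It averaged 2846 ± 1597 in the knockout clone (SD, n = 5) and 2794 ± 1215 in the control clone (SD, n = 4), the low libraries being the same 3, with a log2 fold change of -0.09 (SE 0.51, limma adjusted p = 0.96). TAP1, a subunit of the peptide transporter, ranged from 53.8 to 154 in knockout and from 82.2 to 123 in control libraries. PSMB9, an immunoproteasome subunit, ranged from 17.9 to 47.4 in knockout and from 21.7 to 32.6 in control libraries.

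The order of the libraries was shared by most members, a pattern chosen after the values were seen. Knockout 4 and 5 were the lowest 2 of the 5 knockout libraries for 33 of 41 members (20.8% of all rows, and 34.4% of protein-coding rows averaging 20 or more). Control 4 was the lowest of 4 for 31 members (28.1% of all rows, and 42.1% of those protein-coding rows), and both held for 30 (12.6% of all rows, and 22.1% of those protein-coding rows). The members for which knockout 4 and 5 were not lowest were OAS1, MX2, IFITM2, TLR3, STAT2, IRF1, IRF3 and XAF1. With each library scaled to its protein-coding total, knockout 4 and 5 were lowest for 32 members (8.77% of all rows) and control 4 for 14 (8.67% of all rows). With scaling to total reads they were lowest for 25 (1.56% of all rows) and 13 (3.68% of all rows). The number of members with control 4 lowest thus depends on the scaling, as does its share of all rows. The members' windows held the motif printed in capitals above in 21 of 27 tested members with knockout 4 and 5 lowest (77.8%) and in 1 of 5 others, which was TLR3. MX2, IFITM2 and IRF3 had no window, and a link between the motif and the order of the libraries was not tested.

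Expressed as the deviation from each member's own mean over 9 libraries on the log2(value + 1) scale, the median member stood at 0.74, 0.37, 0.56, -0.81 and -0.86 in knockout 1 to 5, and at 0.30, 0.08, 0.15 and -0.57 in control 1 to 4. The same medians over all tested rows lay between 0.00 and 0.05. In knockout 4 and 5, 37 and 39 members were below their own mean, and in control 4 it was 37, against 4 or 5 in the other knockout libraries and 12 to 15 in the other controls. The share of all reads that came from the 43 genes was 0.0989% and 0.0872% in knockout 4 and 5, against 0.183% to 0.198% in knockout 1 to 3, and 0.117% in control 4, against 0.126% to 0.218% in the other controls.

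**Figure D3:**
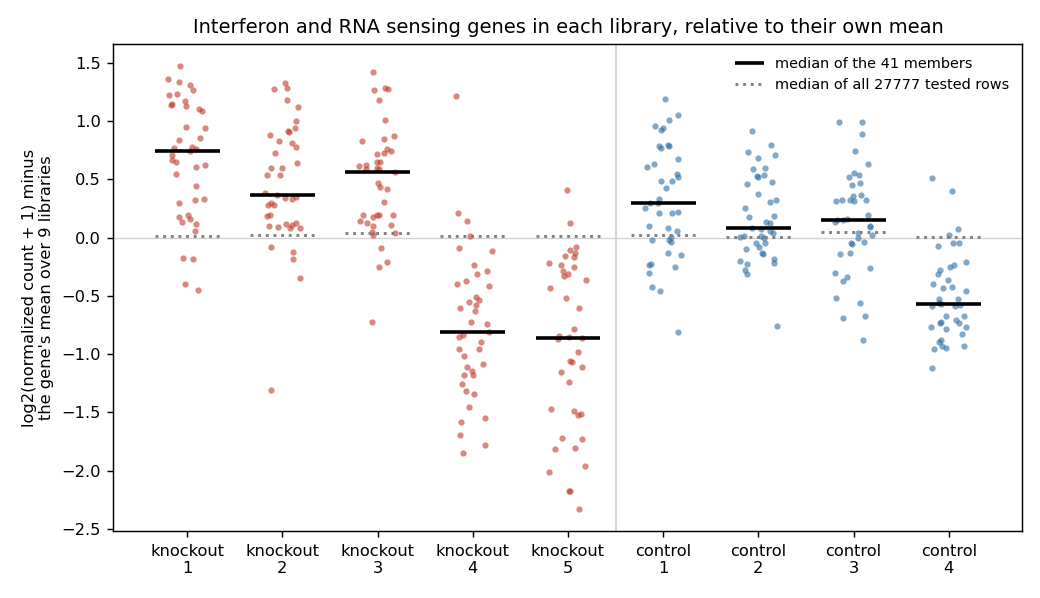
Deviation of each tested member from its own mean over the 9 libraries (y axis, log2 of value + 1), with knockout libraries left of control libraries the member median as a black line and the median of all tested rows as a dotted line. The member medians are -0.81 and -0.86 in knockout 4 and 5 and -0.57 in control 4, while the other 6 libraries lie between 0.08 and 0.74.

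Several other measures of these libraries moved with this order, and others did not. Knockout 4 and 5 and control 4 had the largest number of rows with a read, 40760, 40292 and 40022, against 36452 to 39481 in the other 6. Their size factors were 1.34, 1.36 and 1.11, against 0.859 to 1.04 in the other knockout and 0.644 to 1.10 in the other control libraries. Summed fibroblast markers were 3118 and 2990 in knockout 4 and 5 against 4213 to 4677 in the other knockout libraries, and 3406 in control 4 against 4280 to 6034 in the other controls. The pluripotency sum was lowest in knockout 4 and 5 of the knockout libraries (26755 and 30127) and in control 4 of the controls (31935). Leukocyte markers summed to 20.2 and 30.2 in knockout 4 and 5 against 31.4 to 38.3 in the other knockout libraries, and to 31.6 in control 4 against 49.7 to 66.9 in the other controls. Neural markers summed to 1757 and 1792 in knockout 4 and 5 against 2044 to 2276 in the other knockout libraries. In control 4 they summed to 1656, close to the 1668 of control 1, against 2587 and 4089 in control 2 and 3. Markers of mesendoderm and endoderm summed to 14.9 and 8.85 in knockout 4 and 5 against 22.5 to 23.9 in the other knockout libraries, and to 20.8 in control 4 against 35.6 to 38.3 in the other controls. Trophectoderm and amnion markers did not follow the order in the knockout clone, with sums of 141 and 216 in knockout 4 and 5 against 114 to 177 in the other knockout libraries, and of 111 in control 4 against 182 to 239 in the other controls. Protein-coding shares of reads were 43.5% and 47.5% in knockout 4 and 5, against 26.3% to 42.1% in the other knockout libraries. In control 4 that share was 42.3%, inside the 27.5% to 50.8% of the other controls. Total reads, the mitochondrial share and the share of the most abundant rows likewise did not follow the order in both clones. The marker sums rest on the authors' size factors and were not recomputed under other scalings, so their order may depend on the scaling. The part of all these measures in the order of the members was not tested. Fewer cells with an active response and less RNA per cell cannot be told apart in bulk RNA.

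A test of the replicate number over replicates 1 to 4, added after the values were seen, called 53 of all rows (0.191%) and 0 members by limma at an adjusted p under 0.05. The smallest member value was an adjusted p of 0.12, for B2M. At an unadjusted p under 0.05 it listed 23 of 41 members (19.9% of all rows). With edgeR it called 0 rows and listed 18 members at an unadjusted p under 0.05 (17.0% of all rows).

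Spread within a clone was wider in the knockout clone for 35 of 41 members (32.9% of all rows). The median fold between the highest and lowest library was 3.69 over the members in knockout libraries, beside 1.86 over all rows, and 2.11 in control libraries, beside 2.26 over all rows. The exceptions, wider in the control clone, included IRF3 (1.40-fold in knockout, 3.26-fold in control), IFITM2 (1.81-fold in knockout, 3.17-fold in control) and TLR3 (1.38-fold in knockout, 2.66-fold in control). The knockout clone has 1 library more, and this difference in spread was not tested.

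**Figure D4:**
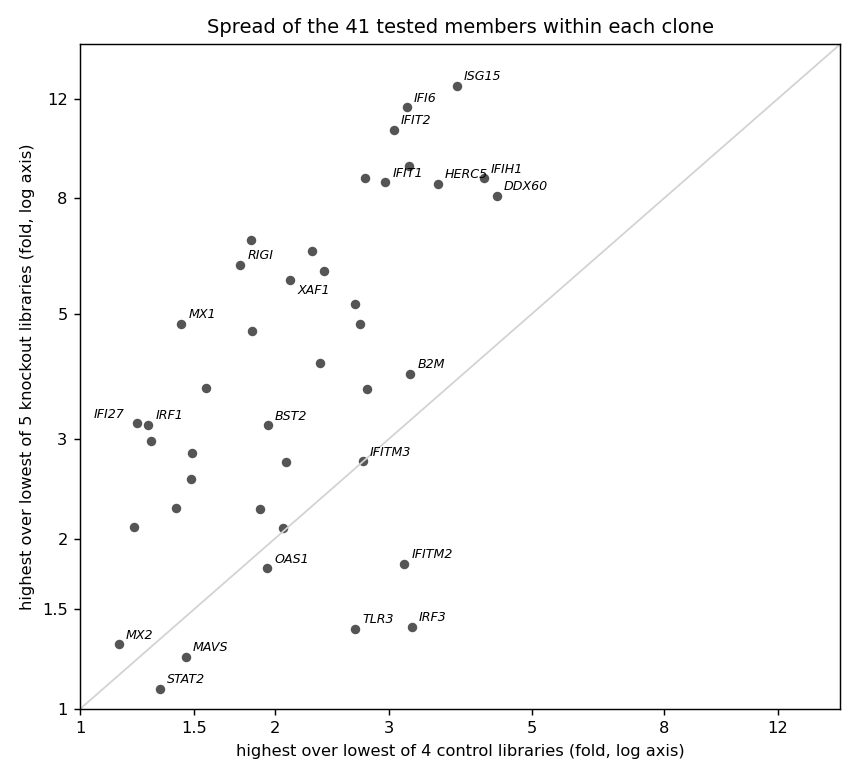
Highest over lowest value (of value + 1) among the 5 knockout libraries (y axis, log) against the same among the 4 control libraries (x axis, log), 1 point for each tested member, with the line of equal spread. Of the 41 points, 35 lie above the line, with ISG15 highest at 12.6-fold.

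Libraries of the same replicate number were also compared, since the labels give that number under a batch tag, although they do not say whether it marks the passage or whether the clones were grown side by side. The median member difference, knockout minus control on the log2(value + 1) scale, was 0.44, 0.35, 0.30 and -0.22 in replicates 1 to 4, and the same over all rows was between -0.05 and 0.01. In all 4 pairs, 8 members were higher in the knockout library (OAS1, EIF2AK2, MX1, BST2, IFI27, IFIH1, DDX60 and IRF7; 9.97% of all rows) and 2 were lower (IFITM3 and TLR3; 10.9% of all rows). MX1 differed by 1.45, 0.81, 1.98 and 0.22 in replicates 1 to 4, BST2 by 0.55, 2.03, 1.34 and 0.33, and IRF7 by 0.57, 0.56, 1.14 and 0.34. IFIT1 differed by 0.34, 0.38, 0.28 and -0.78, the difference being negative in replicate 4 alone. Knockout 5 has no control partner, so it carries no weight in the blocked log2 fold changes, which average the 4 pair differences. With the replicate number as a block, the log2 fold change was 1.12 for MX1 (SE 0.30, limma adjusted p = 0.31), 1.06 for BST2 (SE 0.30, limma adjusted p = 0.33) and 0.65 for IRF7 (SE 0.18, limma adjusted p = 0.31).

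**Figure D5:**
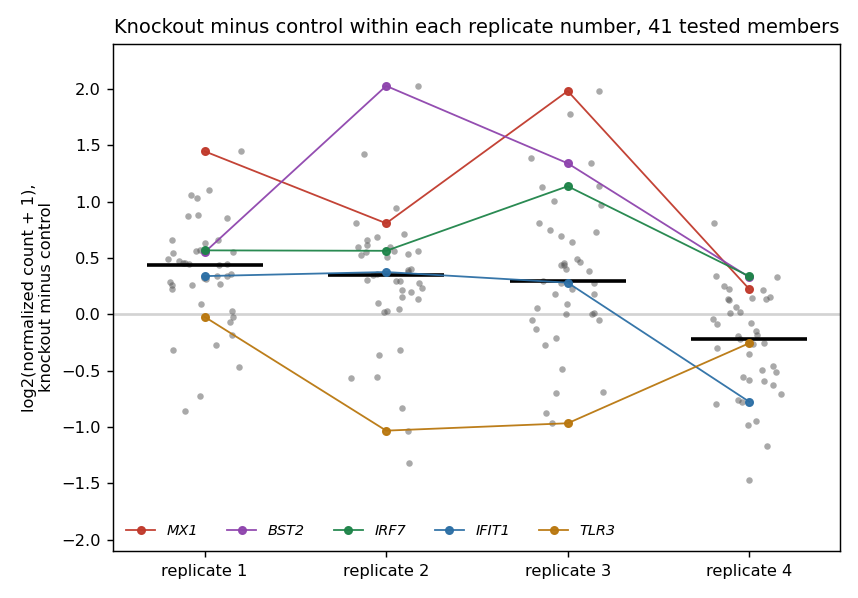
Difference between the knockout and the control library of the same replicate number (knockout minus control, log2 of value + 1) for the tested members in replicates 1 to 4, with grey points for the members, black bars for their median and coloured lines for MX1, BST2, IRF7, IFIT1 and TLR3. The member medians are 0.44, 0.35, 0.30 and -0.22, and MX1, BST2 and IRF7 are above 0 in all 4 pairs.

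Other genes of the pathway were read from lists chosen with earlier results of these data known, and limma called 0 of their tested genes in each of the 5 lists, as did edgeR and the replicate-blocked fit. At an unadjusted p under 0.05, limma listed 1 ligand as higher in knockout libraries, 3 receptor and JAK-STAT genes, 1 adaptor gene and 2 antigen presentation genes as lower, and 3 other interferon-stimulated genes as higher and 1 as lower. Of all rows, 8.63% pass that limma threshold in either direction. DESeq2 called 1 gene in the 5 lists, CANX. Of 13 interferon genes, IFNA1, IFNA2, IFNA6, IFNA8 and IFNG had 0 reads in all 9 libraries, IFNB1 had 35 reads in all, and 4 genes were tested. IFNL1, a lambda interferon, which acts on epithelial cells in particular, had 430.1, 439.7, 373, 47.1 and 34.6 normalized counts in knockout 1 to 5, against 455, 337, 274 and 96.6 in control 1 to 4. Like IFIT1 it was lowest in knockout 4 and 5 and in control 4, with a 12.4-fold range among knockout and a 4.67-fold range among control libraries and a log2 fold change of -0.62 (SE 0.87, limma adjusted p = 0.86). IFNL2 ranged from 2.21 to 55.9 in knockout and from 14.5 to 24.9 in control libraries and IFNL3 from 2.95 to 88.5 in knockout and from 11.7 to 43.8 in control libraries, but these are near-identical copies between which reads can be split. IFNK, a type I interferon of keratinocytes, had 36.4, 25.9, 23.3, 41.9 and 35.4 normalized counts in knockout 1 to 5, against 20.2, 14.0, 8.20 and 21.7 in control 1 to 4. Its libraries did not overlap between the clones, as was so for 3.95% of all rows, and no library held more than 56 of its reads. The log2 fold change of IFNK, picked for the smallest p of its list, was 1.03 (SE 0.34, limma adjusted p = 0.35).

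In the list of receptors and JAK-STAT signalling, 0 of 15 tested genes were called, with a median log2 fold change of 0.01. SOCS1, SOCS3 and IFNGR1, a pair of feedback inhibitors of cytokine receptors and a receptor chain for interferon gamma, had the smallest unadjusted p. Their log2 fold changes were -0.72, -0.75 and -0.36, with limma adjusted p of 0.56, 0.51 and 0.57.

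Of 24 tested adaptors and kinases of nucleic acid sensing, 0 were called and the median was 0.01. The smallest p was that of CGAS, the sensor of cytoplasmic DNA, with 47.9, 44.0, 58.2, 40.4 and 48.6 normalized counts in knockout 1 to 5, against 54.2, 104, 108 and 69.5 in control 1 to 4 and a log2 fold change of -0.76 (SE 0.24, limma adjusted p = 0.34). Of 17 antigen presentation genes, 0 were called by limma, with a median of -0.19. CANX, the chaperone calnexin, averaged 3711 ± 376 in the knockout clone (SD, n = 5) and 5773 ± 1026 in the control clone (SD, n = 4), with a log2 fold change of -0.63 (SE 0.16, limma adjusted p = 0.19). Among 39 tested genes of a list of other interferon-stimulated genes, 0 were called and the median was 0.00. PARP12 had a log2 fold change of 0.59 (SE 0.23, limma adjusted p = 0.51), SP100 of 0.60 (SE 0.25, limma adjusted p = 0.53) and NMI of -0.80 (SE 0.33, limma adjusted p = 0.53). The lowest knockout libraries were knockout 4 and 5 for 30 of these 39 genes and 11 of the 17 antigen presentation genes. They were so for 8 of the 15 receptor and JAK-STAT genes and 8 of the 24 adaptors and kinases. Over all rows the share was 20.8%, and over protein-coding rows averaging 20 or more it was 34.4%, near that of the adaptors and kinases.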

How the data were processed

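RNA was purified on columns with DNase, depleted of ribosomal RNA and made into libraries by the Illumina Stranded Total RNA protocol, per the labels' protocols. The submitters' processing notes name fastp, kallisto, DESeq2 and build hg38. The annotation release, tool versions and strand use in counting were not given in the sources used here.

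Each library has 1 signal column in the table deposited by the authors, holding gene counts over a size factor. All values (100% within a tolerance of 1e-06) were whole multiples of 1 read, so whole reads were recovered. The authors' deposited table also gives a log2 fold change, its standard error, a test score and p-values. A DESeq2 fit of those reads on group alone gave log2 values of the members within 2.1e-12 of the authors' values.

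Low rows were dropped with filterByExpr of edgeR (minimum count 10). The main test was limma 3.58.1 in R 4.3.3, on log2(value + 1) with a trend, fitting the group alone over all 9 libraries. Benjamini-Hochberg adjustment ran over 27777 rows, with a threshold of 0.05. The plan left the choice between edgeR and limma to the unit, and the values were normalized. Fold changes on this scale understate those of genes with few reads. Alternatives were edgeR 4.0.16 and DESeq2 1.42.0 on the reads, other scalings, pseudocounts of 0.5 and 5, no filter, a replicate block and leaving out each library. The log2 fold changes of the blocked fit rest on the same libraries as those of the fit without knockout 5. The count test of edgeR on the recovered reads called 151 rows. Scripts were tested on simulated data.

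The replicate number stands under a batch tag in the labels, so same-numbered libraries were taken as paired. Correlations of their deviations from clone means were 0.07, 0.02, 0.25 and 0.33 in replicates 1 to 4. Libraries of different numbers reached 0.21.

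The members and lists were chosen with earlier results of these data known. Values in every library are given for the 6 members with the smallest unadjusted p, the member with the highest mean in each of 10 roles and 13 fixed members, and up to 3 genes per pathway list are named by smallest p. IFNL3 and IFNB1 were added after the values were seen. Exon lengths and overlaps came from GENCODE 29, and promoter windows from RefSeq (GRCh38.p14), found for 34 of 43 members.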

Additional observations from a re-analysis of the deposited data

Results flagged for a closer look

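A single library stood far from the rest of its clone for 2 members, by the gap to its nearest neighbour as a share of the whole range. Chance flags about 1 in 20 groups, and 86 groups were checked. EIF2AK2 had 1269 normalized counts in knockout 3, against 561 to 762 in the other knockout libraries. BST2 had 525 normalized counts in control 1, against 269 to 281 in the other control libraries, and without that library its log2 fold change, knockout over control, was 1.12 (limma adjusted p = 0.34).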

How the results depend on the processing

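No member was called under any of the 18 alternatives, and the smallest adjusted p of a member lay between 0.23 with DESeq2 and 0.76 without control 2. DESeq2, which was run without the filter on low counts, called 781 rows, of which 713 are among the 27777 tested rows. After the filter, 43 rows were called with the replicate block and 80 to 184 with 1 library left out, the lowest without knockout 4 and the highest without control 4. CANX was the 1 antigen presentation gene that DESeq2 called. The block changed no call of a member. The members' median log2 fold change, -0.09 in the limma fit, ran from -0.29 without control 4 to 0.17 without knockout 5, and up to 14 of 41 members changed sign, none of them called. With each library scaled to its protein-coding total the median of all rows moved to 0.21 and that of the members to 0.12. The members thus lay below all rows, as they did in the main limma fit (-0.09 beside 0.01). Under that scaling control 4 was the lowest control library for 14 members, and it and knockout 4 and 5 were together lowest for 13 (2.62% of all rows). With scaling to total reads these counts were 13 and 12 (0.464% of all rows for the last). The edgeR test of the replicate number called 0 rows. The causes were not tested. Genes with few reads (TLR3, PSMB9, IFI27 and IFI35, beside the untested RSAD2 and IFI44L) limit what the depth can show.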
